A study of Homo sapiens with 4 samples.

Results

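The 10 genes described here encode the replication clamp PCNA, the 5 subunits of its loader replication factor C (RFC1, RFC2, RFC3, RFC4 and RFC5), the Okazaki fragment enzymes FEN1 and LIG1, and the CHAF1A and CHAF1B subunits of chromatin assembly factor 1 (CAF-1). They were chosen by gene symbol, and all 10 were found among the 6828 genes of the deposited table. RNA came from A549 cells, an established human lung adenocarcinoma line, 72 h after infection with lentiviruses that carried either a control shRNA (shctrl) or an shRNA against the long noncoding RNA USP2-AS1 (shUSP2-AS1). Each group held 2 libraries, which the study describes as biological replicates. Both groups were infected with lentivirus made from the pLKO.1 vector and were collected at the same time. The text does not say which USP2-AS1 shRNA was used, and the knockdown group may rest on a single hairpin. The comparison asks which genes respond to loss of USP2-AS1.

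PCNA is a ring that slides along DNA and tethers polymerases and many other replication proteins to the fork. RFC opens the ring with ATP and closes it around primed DNA, which happens again for every Okazaki fragment on the lagging strand. FEN1 then trims the displaced flap, LIG1 seals the remaining nick, and CAF-1, which itself binds PCNA, places histones H3 and H4 on the new DNA. Most of these genes are transcribed with the G1 to S transition, and E2F transcription factors are known to act on several of them.

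The measured value was a normalized read count per gene, meaning its reads scaled by the size factor of each library. Listed genes received 10772788 to 14120472 reads per library, a part of the full depth. All 6828 listed genes had an adjusted p under 0.05 in the authors' own comparison, so genes without such a change are absent from the table and the tested genes had already passed a selection. USP2-AS1 had 24 and 22 reads in the shctrl libraries against 2 and 7 reads in the shUSP2-AS1 libraries, a log2 fold change of -2.39 (SE 0.56, limma adjusted p = 0.000597) that was -1.78 without shUSP2-AS1 replicate 1 and -2.99 without shUSP2-AS1 replicate 2. Against a fold change of 2 its limma adjusted p was 0.0723. Of 6 epithelial markers, KRT7, KRT8, KRT18 and KRT19 were listed, with KRT7 at 55535 to 57568 in shctrl and 38282 to 42083 in shUSP2-AS1. KRT18 had a log2 fold change of -1.05 and KRT19 of 0.75. CDH1, EPCAM and the markers of immune, fibroblast and endothelial cells (PTPRC, CD3E, COL1A2, PECAM1) were not listed, which does not show that they were unexpressed.

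The 10 genes were lower in shUSP2-AS1 cells, by 1.52-fold for RFC1 and by 2.02-fold to 4.37-fold for the others. Their median log2 fold change was -1.68, beside 0.19 over all 6812 genes tested. Genes were called at a limma adjusted p under 0.05 together with a log2 fold change of -1 or below (lower) or 1 or above (higher). By that rule 9 of the 10 were called lower and 0 higher, where 13.5% of all genes tested were called lower and 16.1% higher. The remaining gene, RFC1, passed the adjusted p but not the fold. All 10 passed the adjusted p in the lower direction, as did 49.4% of all genes tested. In all 10 both shUSP2-AS1 libraries lay below both shctrl libraries, as in 49.3% of all genes tested. Of the 3362 genes tested with a log2 fold change below 0, 3362 passed the adjusted p and 3361 had no overlap. The listed genes were already selected in these libraries, so neither property sets the 10 genes apart. Overlap is given below for single genes as description only. The limma adjusted p of the 10 ran from 7.12e-13 for CHAF1A to 6.25e-07 for RFC1. These are values of bulk RNA, in which fewer cells in S phase and less of each RNA per cell cannot be told apart.

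**Figure D1:**
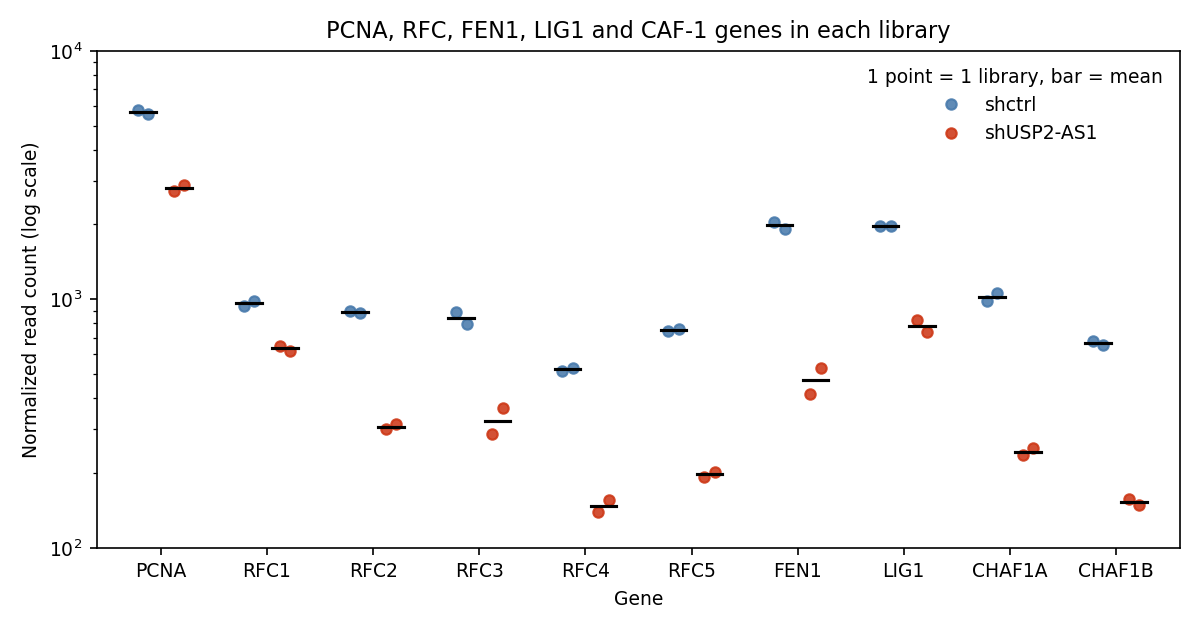
Normalized read count (log axis) of the 10 genes in each library, with shctrl in blue, shUSP2-AS1 in red, 1 point per library and a bar at the mean of 2 libraries. For every gene both red points lie below both blue points, and the gap is narrowest for RFC1 (963 against 634) and wide for CHAF1B (667 against 153).

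Promoters of the 10 genes were searched for motifs as a description, with no test. RefSeq promoters (GRCh38.p14) from 250 bases before to 50 bases after the start were available for all 10 genes, with 11 promoters in all because PCNA has 2. Both strands were searched for an E2F site spelled TTTCCCGC, TTTCGCGC, TTTGCCGC or TTTGGCGC, for CCAAT, and for the cell cycle homology region spelled TTTGAA or TTCGAA. An E2F site was found for 3 of the 10 genes (PCNA, LIG1 and RFC3), each time as TTTCCCGC. That is 3 of their 11 promoters (27.3%), beside 3.31% of all 35116 promoters, 4.77% of the promoters of genes tested and 11.1% of those of genes called lower. The stretches below show how each of these sites sits before a RefSeq start of its gene. CHAF1A is set beside them as a strongly lowered gene with none of these spellings in its window. Its stretch ends in gttcccgc, which differs from TTTCCCGC in the first letter only and was not counted. Sequences run along the gene's own strand, and capitals mark an E2F site or CCAAT on either strand.
PCNA: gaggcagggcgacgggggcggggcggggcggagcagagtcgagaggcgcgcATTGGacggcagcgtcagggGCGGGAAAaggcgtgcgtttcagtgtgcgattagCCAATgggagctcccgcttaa
LIG1: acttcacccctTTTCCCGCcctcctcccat
RFC3: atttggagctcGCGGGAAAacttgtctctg
CHAF1A: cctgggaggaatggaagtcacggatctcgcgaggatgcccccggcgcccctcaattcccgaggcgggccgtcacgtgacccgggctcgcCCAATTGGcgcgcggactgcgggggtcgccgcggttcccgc
The PCNA stretch is chr20:5126627-5126752 on the minus strand, outside annotated exons of PCNA. Exons of other genes were not checked for any of the stretches. The PCNA E2F site, read on the opposite strand, begins at position -59 from the start. It lies between a CCAAT at -25 and another on the opposite strand at -79. The LIG1 stretch is chr19:48170440-48170469 on the minus strand and lies in an exon of 1 of 36 LIG1 transcripts in GENCODE release 44, with the site at -114. The RFC3 stretch is chr13:33818083-33818112 on the plus strand and lies in an exon of 1 of 3 RFC3 transcripts, with the site on the opposite strand at -55. The CHAF1A stretch is chr19:4402510-4402639 on the plus strand, outside annotated exons of CHAF1A. In it a CCAAT at -41 and one on the opposite strand at -38 share letters.

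CCAAT was found for 4 of the 10 genes (PCNA, RFC1, RFC5 and CHAF1A). By promoter this is 5 of 11 (45.5%), beside 34.6% of all promoters, 35.0% of those of genes tested and 46.5% of those of genes called lower. The cell cycle homology region was in 0 of the 11 promoters, beside 16.4% of all promoters, 923 of the 7712 of genes tested and 181 of the 904 of genes called lower, which says only that these letters are not in these windows. A match is a description of letters and not evidence of binding. The 3 genes with the lowest log2 fold changes, CHAF1B, FEN1 and CHAF1A, had no E2F site spelled this way in the window. Near matches, such as that at the end of the CHAF1A stretch, were not counted, so an E2F site of another spelling could have been missed. The RefSeq start lay 3115 bases from the start in the authors' table for RFC5, 576 for RFC4 and 259 for LIG1, and at most 80 bases from it for the other genes, apart from the second PCNA promoter, 6668 bases away. The transcription factor gene E2F1 had normalized read counts of 1280.3 and 1241 in shctrl and 276 and 304 in shUSP2-AS1, giving a log2 fold change of -2.12 (SE 0.08). Its part in the lower values of the 10 genes was not tested.

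PCNA (ENSG00000132646, chr20:5114953-5126626, minus strand) had the highest level per length of the 10 genes, at 4048 normalized reads per kilobase in shctrl. Its normalized read count was 5801 and 5556 in shctrl and 2732 and 2895 in shUSP2-AS1. The libraries of a group lay close together and the groups did not overlap. The mean went from 5679 ± 173 to 2813 ± 115 (SD, n = 2 each), so that 49.5% of the control level was left. The log2 fold change was -1.01 (95% interval -1.12 to -0.90), which sits at the call threshold of a log2 change of -1. PCNA was no longer called without shctrl replicate 1 (-0.98), without shUSP2-AS1 replicate 1 (-0.97), under upper quartile scaling (-0.95) or in a test against a fold change of 2. Its direction did not change in these fits. PCNA has 3 named pseudogenes, and how reads shared with them were counted is not given in the sources used here.

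RFC1 (ENSG00000035928, chr4:39287456-39366375, minus strand) encodes the large subunit that is particular to replication factor C. It stood at 943 and 984 in shctrl and at 650 and 619 in shUSP2-AS1. The groups did not overlap, but the change was the smallest of the 10. Its mean of 963 ± 28.6 compared with 634 ± 21.9 (SD, n = 2 each), or 65.9% of control. The log2 fold change of -0.60 (SE 0.07, 95% interval -0.76 to -0.45) did not reach the call threshold, with a limma adjusted p of 6.25e-07. Among all genes tested, 28.5% had a log2 fold change as low as or lower than that of RFC1.

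The 4 small subunits, RFC2 to RFC5, form a core that also serves the alternative loaders, where another large subunit takes the place of RFC1. Each of them was called lower. RFC2 (ENSG00000049541, chr7:74231499-74254458, minus strand) had 899.6 and 879 in shctrl and 299.7 and 314 in shUSP2-AS1. This is 34.5% of control, a log2 fold change of -1.53 (SE 0.08). RFC3 (ENSG00000133119, chr13:33818069-33966558, plus strand) had 889.9 and 798 against 286 and 364. Its 2 libraries differed more within each group than those of RFC2. The level left was 38.5% of control, a log2 fold change of -1.38 (SE 0.11). Left-out libraries moved the RFC3 value between -1.56 and -1.21.

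RFC4 (ENSG00000163918, chr3:186789880-186807058, minus strand) had 517 and 531 in shctrl and 139.9 and 156 in shUSP2-AS1. With 28.2% of control left, its log2 fold change was -1.82 (SE 0.11). RFC5 (ENSG00000111445, chr12:118013588-118033130, plus strand) had 749 and 762 against 193 and 202. It was the most lowered RFC gene, at 26.2% of control and a log2 fold change of -1.93 (SE 0.10). The 95% interval of RFC5 (-2.13 to -1.73) overlapped that of RFC4 (-2.06 to -1.58), so their order is not resolved, and neither overlapped that of RFC1. Of RFC5 exon bases, 5.73% overlap WSB2 on the opposite strand and 4.92% a noncoding gene, and whether reads were counted by strand is not given in the sources used here.

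**Figure D2:**
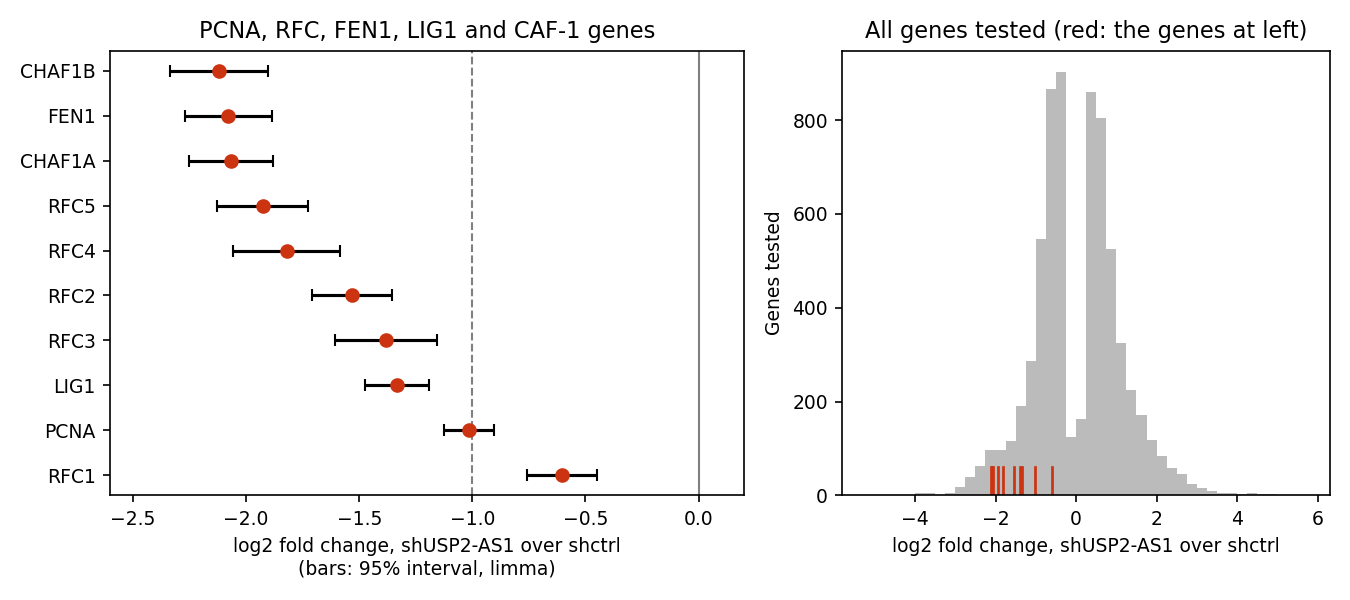
Left, log2 fold change of the 10 genes (shUSP2-AS1 over shctrl) with the 95% interval from limma, where the dashed line marks -1. Right, the log2 fold changes of all 6812 genes tested in bins, with red ticks at the 10 genes. The 10 values run from -2.12 for CHAF1B to -0.60 for RFC1, and few genes lie near 0 in a table that lists genes past the authors' adjusted p.

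FEN1 (ENSG00000168496, chr11:61792911-61797238, plus strand), the nuclease that cuts 5′ flaps, had 2050.4 and 1918 in shctrl. In shUSP2-AS1 it had 414 and 530.0. The mean of 1984 ± 93.8 compared with 472 ± 81.8 (SD, n = 2 each), or 23.8% of control. Its log2 fold change was -2.08 (SE 0.09), and shUSP2-AS1 replicate 1 was the lower of the knockdown libraries, so that the value was -1.90 without it. LIG1 (ENSG00000105486, chr19:48115445-48170603, minus strand), the ligase that seals Okazaki fragments, had 1969 and 1966 in shctrl, with almost no spread. It had 824 and 739 in shUSP2-AS1, or 39.7% of control. The groups did not overlap and the log2 fold change was -1.33 (SE 0.07). The 95% intervals of FEN1 (-2.27 to -1.89) and LIG1 (-1.48 to -1.19) did not overlap. FEN1 shares 2.23% of its exon bases with FADS2 on the same strand, and LIG1 shares 3.745% with a noncoding gene on the opposite strand. CHAF1B shares 1.74% with MORC3 on the same strand. Genes on the opposite strand overlap 1.87% and 0.46% of CHAF1A exon bases and 0.60% of those of RFC4. FEN1, RFC3 and RFC5 have 1 named pseudogene each. Some reads of all these genes could therefore belong elsewhere.

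CHAF1A (ENSG00000167670, chr19:4402640-4445018, plus strand), the largest CAF-1 subunit, had 988 and 1060.5 in shctrl and 236 and 252 in shUSP2-AS1. CHAF1B (ENSG00000159259, chr21:36385392-36419015, plus strand), the middle subunit, had 680.3 and 654 against 157 and 149. Both kept under 24% of their control level (23.8% and 22.9%), with log2 fold changes of -2.07 (SE 0.09) and -2.12 (SE 0.10). The CAF-1 subunit outside these genes is the histone-binding protein RBBP4, which also serves other chromatin complexes. RBBP4 had 1562 and 1524 in shctrl and 884 and 869 in shUSP2-AS1. Its log2 fold change of -0.82 (SE 0.06, limma adjusted p = 1.92e-09) passed the adjusted p and not the fold, and its 95% interval of -0.95 to -0.68 lay above those of CHAF1A and CHAF1B.

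Levels of different genes were ordered per length, as normalized read count per kilobase of the gene length in the table. In shctrl PCNA stood at 4048 per kilobase, ahead of FEN1 at 903 and RFC2 at 402. LIG1 (299) and RFC3 (295) had overlapping libraries and could not be ordered, and the same held for CHAF1A (237) and RFC5 (232). RFC4 (174.8), RFC1 (143) and CHAF1B (131) were lowest. PCNA, FEN1 and RFC2 also led in shUSP2-AS1, at 2005, 215 and 139 per kilobase, and CHAF1B was again lowest at 29.9. The summed level of the 10 genes was 6990.5 and 6740 per kilobase in shctrl and 2785 and 2980.3 in shUSP2-AS1. PCNA made up 59.0% of that sum in shctrl and 69.6% in shUSP2-AS1, and FEN1 13.1% and 7.45%. The table's gene length counts the exons of all transcripts together, so a gene with long exons that A549 cells do not use is understated on this scale. For LIG1 the table gives 6576 bases where GENCODE release 44 gives 11348.

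Within RFC the order of the subunits differed between the groups. RFC1 was the lowest of the 5 subunits per kilobase in shctrl (143) and the third in shUSP2-AS1 (94.4), above RFC5 (60.9) and RFC4 (49.3). Log2 ratios between genes were taken within a library from the normalized read counts, not divided by length. Their sign therefore says nothing of which gene has the higher level, but gene length and library scaling cancel in the difference between the groups. The ratio of RFC1 over the mean of RFC2 to RFC5 was 0.34 and 0.43 in shctrl and 1.56 and 1.33 in shUSP2-AS1, a difference of 1.06 with a pooled SD of 0.12. PCNA over the same 4 subunits went from 2.96 and 2.93 to 3.63 and 3.56, a difference of 0.65 (pooled SD 0.04). In each knockdown library the mean of the small subunits was thus lower relative to RFC1 and to PCNA than in each control library.

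The ratio of FEN1 over LIG1, also not divided by length, was 0.06 and -0.04 in shctrl and -0.99 and -0.48 in shUSP2-AS1. The difference of -0.75 (pooled SD 0.26) came to -0.49 without shUSP2-AS1 replicate 1. Per kilobase FEN1 was above LIG1 in both groups (903 against 299 in shctrl and 215 against 119 in shUSP2-AS1). CHAF1A over CHAF1B behaved differently, at 0.54 and 0.70 in shctrl and 0.59 and 0.76 in shUSP2-AS1. These libraries overlapped, and the difference of 0.05 was smaller than the pooled SD of 0.12 (exact two-sided permutation test, p = 0.667). For the other 4 ratios compared, that with CDKN1A below included, the groups were fully separated and the exact permutation p was 0.333 (0.417 after Benjamini-Hochberg adjustment over the 5 ratios), which is the smallest p that 2 against 2 libraries can give.

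**Figure D3:**
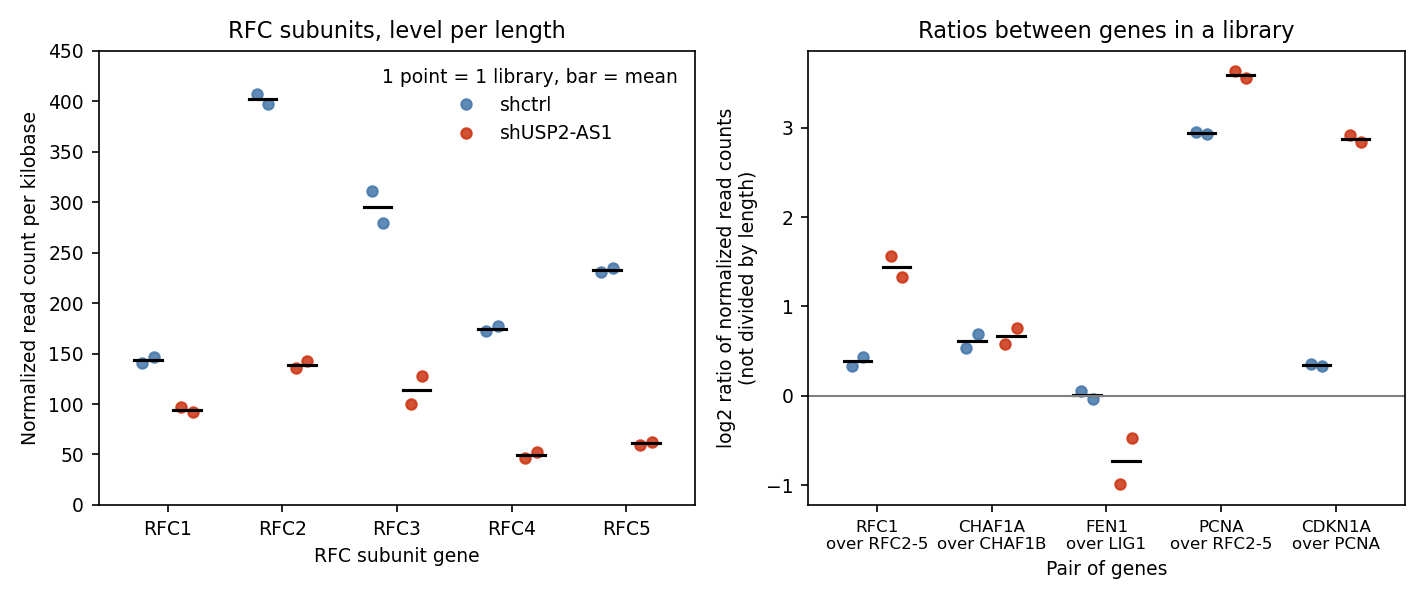
Left, normalized read count per kilobase of the 5 RFC genes, and right, log2 ratios of normalized read counts between genes within a library (not divided by length), with 1 point per library (shctrl blue, shUSP2-AS1 red) and a bar at the mean. RFC1 goes from the lowest subunit in shctrl to above RFC4 and RFC5 in shUSP2-AS1, and CHAF1A over CHAF1B is the ratio whose groups overlap.

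Other genes of the pathway were described in 4 lists. Each median covers the listed genes only. Genes without an adjusted p under 0.05 in the authors' comparison are absent, so a median may lie farther from 0 than that of the whole list. Of all genes tested, 13.5% were called lower and 16.1% higher. Of 8 genes for the alternative clamp loaders and the checkpoint clamp, 5 were listed, 4 were called lower and 0 higher, with a median log2 fold change of -1.78. CHTF18, the large subunit of the loader tied to sister chromatid cohesion, had 853 and 865 in shctrl and 245 and 253 in shUSP2-AS1, giving a log2 fold change of -1.78. Its partner DSCC1 was at -1.92, and ATAD5, which takes PCNA off DNA, at -1.89. The 2 listed checkpoint clamp genes were RAD1 (-1.30, called lower) and RAD9A (-0.86, not called), named after their values were seen.

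The list of other Okazaki and flap processing genes held 10 genes, of which 7 were listed, with a median of -0.78. Only EXO1 and DNA2 among these 7 were called lower. EXO1, an exonuclease that can also cut flaps, had 607 and 636 in shctrl and 81.0 and 107 in shUSP2-AS1, giving a log2 fold change of -2.73. DNA2, which trims long flaps, was at -1.36. PARP1, which binds unsealed nicks, was high in all libraries (3079 to 4365) and its log2 fold change was -0.50. RNASEH2B, RNASEH1, LIG3 and XRCC1, named after their values were seen, lay between -0.87 and -0.47 and were not called.

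Of 24 modifiers and partners of PCNA, 19 were listed, 16 were called lower and 1 higher, with a median of -1.73. CDT1, a licensing factor that is destroyed when PCNA sits on chromatin, had 993 and 957 in shctrl and 124 and 137 in shUSP2-AS1, giving a log2 fold change of -2.89. UHRF1, which reads newly replicated methylated DNA, was at -2.08 and the fork protection gene TIMELESS at -1.99. KMT5A (-0.92) and ZRANB3 (-0.81), named after their values were seen, were not called. The gene called higher was CDKN1A, whose product p21 inhibits cyclin-dependent kinases and binds PCNA. CDKN1A had 7436 and 6989 in shctrl and 20618 and 20765 in shUSP2-AS1, giving a log2 fold change of 1.52 (SE 0.05, limma adjusted p = 2.5e-14). The log2 ratio of CDKN1A over PCNA in normalized read counts was 0.36 and 0.33 in shctrl and 2.92 and 2.84 in shUSP2-AS1. That difference of 2.53 (pooled SD 0.04) was the widest of the 5 ratios compared.

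Of 24 histone chaperone and chromatin assembly genes, 15 were listed, 9 were called lower and 0 higher, with a median of -1.26. The 3 with the lowest p were HJURP (-1.80), which loads the centromeric histone, SUPT16H (-1.51), a FACT subunit, and NASP (-1.73), which holds free H3 and H4. ASF1A, which hands H3 and H4 to CAF-1, was the 1 listed gene with a value above 0. It had 283 and 262 in shctrl and 356 and 390.0 in shUSP2-AS1, giving a log2 fold change of 0.45 (limma adjusted p = 0.000596) that stayed under the call threshold. For comparison, all 8 replication licensing genes, CDT1 among them, were called lower with a median of -2.61. Of 12 polymerase and primase genes, 7 were called lower and 1 higher, with a median of -1.40. The higher call, POLD4 at 1.03 (named after its value was seen), was lost under RLE scaling, in DESeq2 with its own size factors, without shctrl replicate 2, without shUSP2-AS1 replicate 2 and against a fold change of 2, each of which left 0 called higher. The median of -1.68 for the clamp, loader, Okazaki and CAF-1 genes lay between these, and no test was made between lists.

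**Figure D4:**
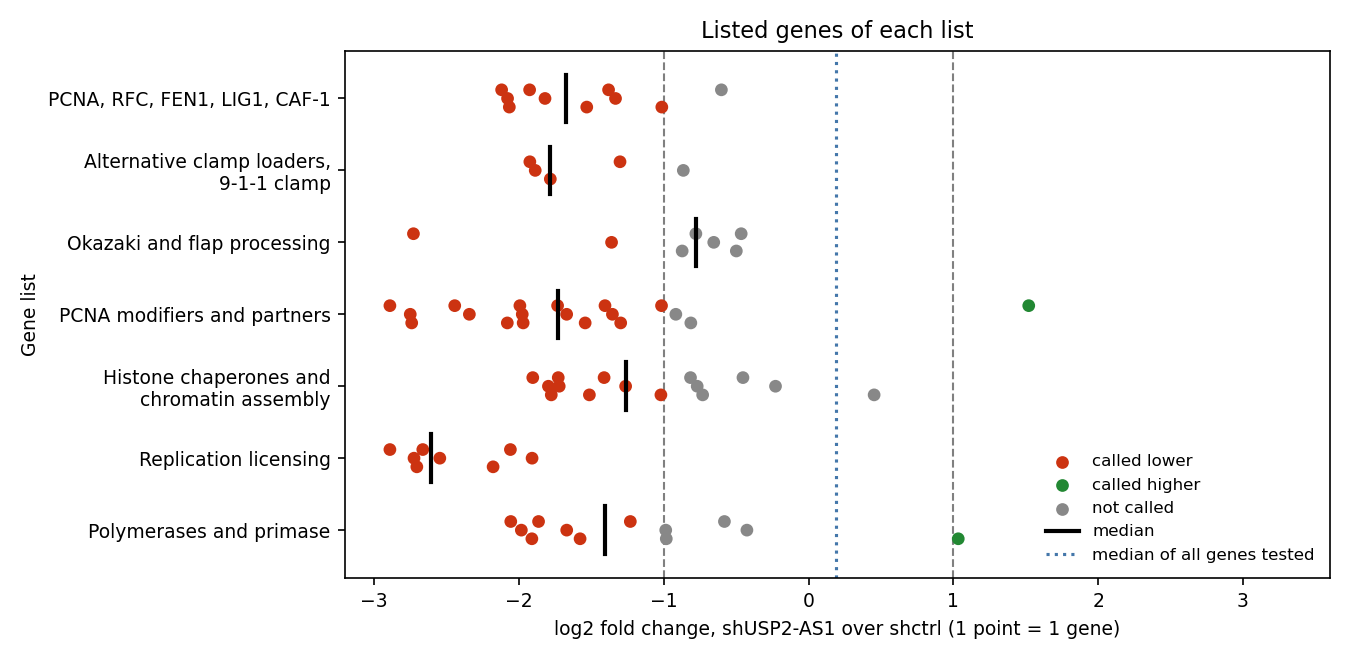
Log2 fold change (shUSP2-AS1 over shctrl) of each listed gene in 7 gene lists, 1 point per gene, with a black bar at the list's median, dashed lines at -1 and 1 and a dotted line at the median of all genes tested (0.19). The licensing genes lie farthest left (median -2.61), the other Okazaki and flap genes lie nearest to 0 (median -0.78), and CDKN1A is the point at 1.52.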

How the data were processed

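RNA-seq libraries of 4 A549 samples were sequenced and analysed by Novogene. The submitters' processing notes name HISAT2 2.0.5, featureCounts 1.5.0-p3, DESeq2 1.20.0 and hg38. The authors deposited 1 table with a normalized signal per gene and library (reads over a size factor), gene positions and lengths. It also holds the log2 fold change, p and adjusted p of their own comparison. Of these only the adjusted p was used, to see how many listed genes were under 0.05. Columns were matched to groups by the table's name (scr for shctrl, sh216 for shUSP2-AS1). The 10 genes, lists and tests were chosen with earlier results of these data known.

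Since the values were normalized, genes with a mean of at least 10 (6812) were fitted with limma 3.58.1 (R 4.3.3, lmFit, eBayes with trend) on log2(value + 1), a scale that understates changes of low genes, with Benjamini-Hochberg adjustment over all genes tested. Values were whole multiples of 1 read (100% within 0.01), worth 0.966 and 1.10 in shctrl and 1.05 and 0.88 in shUSP2-AS1. These reads were used for edgeR 4.0.16 and DESeq2 1.42.0. Other alternatives were a pseudocount of 0.1, other filters, scalings and thresholds, a replicate block and left-out libraries. Libraries of a group differed beyond counting noise (chi-square per degree of freedom 3.75 and 3.84). P-values measure the spread between these libraries only. In limma the spread of each gene was drawn toward a trend over all genes tested. The degrees of freedom (median 17.04) therefore came mostly from other genes and not from the 2 libraries per group. All genes tested had passed the authors' adjusted p in these same libraries, which favours a small spread within groups. The limma SEs and p-values may therefore be too small and the intervals too narrow, including where intervals of genes are compared. The limma, edgeR and DESeq2 fits were checked on simulated counts in which 200 genes changed. Almost all genes tested here passed the adjusted p, a setting that the simulation does not cover. The permutation test and the other alternatives were not simulated. Genes named were the 10, USP2-AS1, E2F1, RBBP4, CDKN1A and the 3 with the lowest p in each direction of each related list, with other named genes chosen after their values were seen. Protein sequences were not used here.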

Additional observations from a re-analysis of the deposited data

How the results depend on the processing

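Over the settings tried, all 160 values of the 10 genes were below 0, and 155 had the same call. The exceptions were PCNA, given above, and RFC1, which was called when no fold threshold was set. The other filters, the replicate block and the changed fold thresholds returned the main log2 fold change of each gene. Their values are therefore repeats that could not change sign. The median of the 10 genes was -1.79 under RLE scaling and -1.80 in DESeq2 with its own size factors. RLE scaling moved the median of all genes by -0.12. Leaving out 1 library at a time gave medians from -1.73 to -1.62 and 8 to 9 genes called lower. With no fold threshold, 7 of the other Okazaki and flap genes were called lower, and 14 of the histone chaperone genes were called lower and 1 higher. A test against a fold change of 2 called 523 of all genes lower and 541 higher, and no fold threshold called 3362 lower and 3449 higher, beside 922 and 1098. The libraries share replicate numbers, but nothing states that a number marks a shared culture, and with only 2 per group the deviations of same-numbered libraries correlated at -0.04 across genes, so the numbers were not taken as pairs. With the replicate block the median of the 10 genes was -1.68, 9 were called lower, and 922 of all genes were called lower and 1098 higher. In this balanced layout the block leaves every log2 fold change as it was, so the equal median was fixed in advance. Calls could differ only through the adjusted p. With 2 libraries per group no permutation p can fall below 0.333. Genes with about 133 to 177 reads in a knockdown library, such as RFC4, are measured less precisely than PCNA with 2598 to 3288.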
